A study of Mus musculus with 6 samples.

Results

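Rragd encodes RagD, a Rag GTPase that links amino acid supply to the growth-promoting kinase complex mTORC1. It is 1 of the 3542 genes in a table of liver mRNA sequencing, found there by its symbol, and 1 row of the table carries that symbol. The gene was picked with its difference between the groups already known from these same libraries, so that difference is described below and not tested. The mean normalized count of Rragd in Mul1(+/+) HFD-liver was 108 ± 23.8 (SD, n = 3). In Mul1(-/-) HFD-liver the mean was 846 ± 240.4 (SD, n = 3).

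The livers came from 3 wild-type Mul1(+/+) mice and 3 whole-body Mul1(-/-) mice, which were obtained from matings of heterozygous animals and lack the ubiquitin ligase MUL1 of the outer mitochondrial membrane. Mice of both groups received a high-fat diet (HFD) for 16 weeks from the age of 8 weeks, so every difference given here is one between genotypes under HFD. The paper reports that on HFD the Mul1(-/-) mice gained little weight, lacked liver steatosis and ate more. Effects of body weight, liver fat and food intake cannot be told apart from those of genotype here. The study used males and females, the labels do not give the sex of a library, and with the deletion present in all tissues, effects of MUL1 loss in the liver and elsewhere cannot be told apart. The labels name the cell type as hepatocytes, but pieces of liver tissue were used and no sorting is described.

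Rag GTPases work in pairs on the surface of the lysosome, with RagA or RagB joined to RagC or RagD. A scaffold called Ragulator holds the pair there, the GATOR1 complex switches RagA and RagB off when amino acids are scarce, and the folliculin complex acts on RagC and RagD. A pair in its active state brings mTORC1 to the lysosome, where the GTPase RHEB turns the kinase on. RagC and RagD also bring the transcription factors TFEB and TFE3 to mTORC1, and Rragd is itself known as a target gene of these factors in liver and muscle.

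Rragd (ENSMUSG00000028278) lies on chromosome 4 of GRCm38 on the plus strand, at chr4:32983037-33022180, in the GENCODE M21 annotation. The gene spans 39144 bases, and the exons of its 4 annotated transcripts cover 5173 bases. The 3 long transcripts have 5055, 5008 and 4295 bases in 8, 7 and 6 exons, and the table gives 1 value for the gene, so these transcripts cannot be told apart. No exon of another gene overlaps an exon of Rragd, and 10 of the 5269 different runs of 50 bases in its transcripts (0.190%) also occur in a transcript of another gene. Reads of Rragd were therefore separable from those of the other Rag genes at nearly every position.

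The 250 bases in front of the RefSeq start of Rragd (GRCm38.p6) are shown because TFEB and TFE3 bind the sequence CACGTG, and because genes of the amino acid response share the letters TGATGNAA, with N for any base, to which the factor ATF4 binds. The same window of Asns, the asparagine synthetase gene and a standard ATF4 target whose values ran close to those of Rragd, is shown for comparison, with its match to TGATGNAA in capitals. The Rragd window is chr4:32982748-32982997 on the plus strand, and the Asns window is chr6:7693210-7693459 on the minus strand.
Rragd: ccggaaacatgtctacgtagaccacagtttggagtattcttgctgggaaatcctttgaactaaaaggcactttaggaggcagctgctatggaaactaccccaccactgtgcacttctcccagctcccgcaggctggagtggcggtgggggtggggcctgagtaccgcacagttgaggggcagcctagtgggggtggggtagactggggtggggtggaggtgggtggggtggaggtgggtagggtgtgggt
Asns: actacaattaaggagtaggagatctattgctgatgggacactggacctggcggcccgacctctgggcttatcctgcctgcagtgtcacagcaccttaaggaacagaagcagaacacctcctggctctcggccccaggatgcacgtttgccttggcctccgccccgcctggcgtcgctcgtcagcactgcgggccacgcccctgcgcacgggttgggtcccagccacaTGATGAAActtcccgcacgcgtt

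Neither strand of the Rragd window held CACGTG (0 matches) or TGATGNAA (0 matches). The Asns window held 1 match to TGATGNAA, read as TGATGAAA on the gene's own strand and beginning 23 bases before the start, and 0 matches to CACGTG. Among 32851 RefSeq promoter windows of the same length, 6.02% held CACGTG and 3.45% held TGATGNAA on either strand. The windows were similar in base composition, with 59.6% G and C for Rragd and 61.6% for Asns. A missing match says only that these letters are not in these 250 bases.

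In the Mul1(+/+) libraries the normalized count of Rragd was 88.5 in replicate 1, 101.84 in replicate 2 and 134.75 in replicate 3. A normalized count is the number of reads on the gene divided by a factor for its library. These values rest on 105, 115 and 165 reads, and the exact 95% Poisson intervals, which cover counting error only, were 72.4 to 107, 84.1 to 122 and 115 to 157. Replicate 3 was the highest, with an interval above that of replicate 1, and the Mul1(+/+) values differed among themselves by at most 1.52 times.

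In the Mul1(-/-) libraries the normalized count of Rragd was 572.78 in replicate 1, 1026.28 in replicate 2 and 938 in replicate 3. Behind these values stood 392, 838 and 1068 reads, with intervals of 517 to 632, 958 to 1098 and 883 to 996. Replicate 1 was the low library of its group, with an interval below those of the other replicates, and the group's highest value was 1.79 times its lowest. The groups did not overlap: the lowest Mul1(-/-) value was 4.25 times the highest Mul1(+/+) value. In the table as a whole, chosen by the authors for differences between these libraries, 90.3% of the genes had groups that did not overlap, 49.3% with the higher values in Mul1(-/-), so the separation of Rragd is shared with most of the table.

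**Figure D1:**
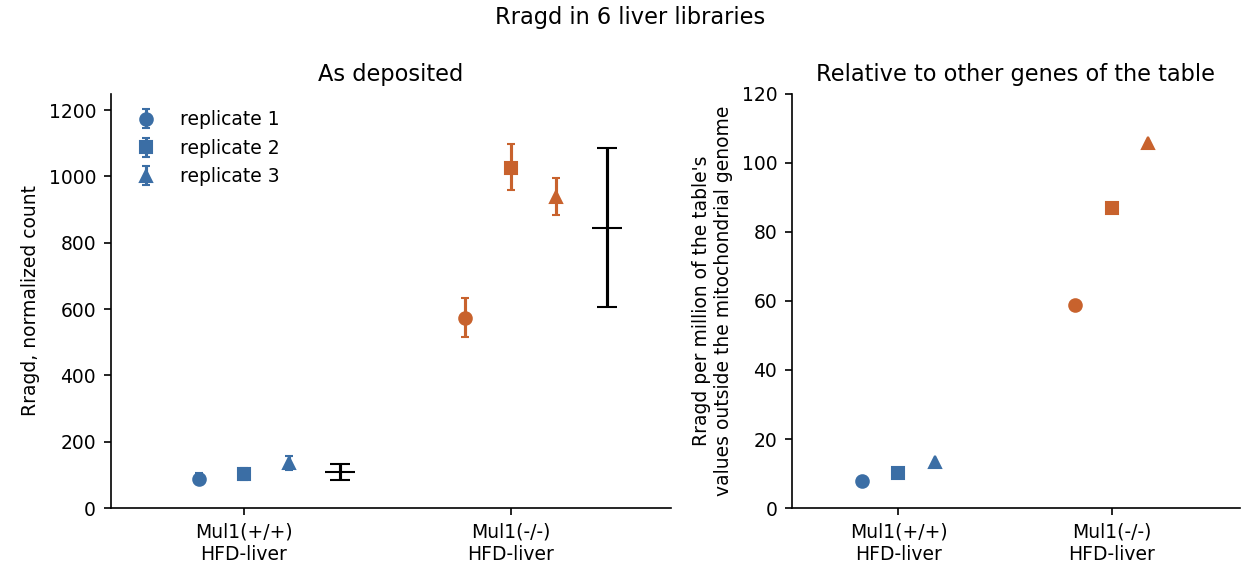
Normalized count of Rragd in each library (left, bars on points are 95% Poisson intervals, black lines are group mean and SD, n = 3) and its value per 1000000 of the table's values outside the mitochondrial genome (right). The 3 Mul1(+/+) libraries lie between 88.5 and 134.75 on the left axis and the 3 Mul1(-/-) libraries between 572.78 and 1026.28.

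The ratio of the group means of Rragd was 7.80. On the log2(normalized count + 1) scale the difference was 2.93, with a standard error of 0.41 from a linear model fitted with limma to all genes of the table. The SD of the log2 values was 0.31 in Mul1(+/+) and 0.45 in Mul1(-/-), and the pooled SD of 0.39 was smaller than the median of 0.53 over the table, with 24.6% of the genes below it. Rragd was thus among the less variable genes within groups. Set against the Mul1(+/+) mean, the Mul1(-/-) libraries stood at 5.29, 9.47 and 8.66 times that level. By log2 difference Rragd ranked 167 among the 2012 genes with a higher mean in Mul1(-/-), whose median difference was 1.67, and 41 among the 1109 such genes with a mean normalized count of at least 100. By the gap from the highest Mul1(+/+) to the lowest Mul1(-/-) value, 2.08 on the log2 scale, it ranked 37. This gap is negative for every gene with lower values in Mul1(-/-), so the rank is one among genes with higher values there.

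Counting error was a small part of this spread. One standard deviation of counting was between 7.78% and 9.76% of the value in the Mul1(+/+) libraries and between 3.06% and 5.05% in the Mul1(-/-) libraries, while the coefficient of variation between libraries was 22.0% and 28.4%. Per 1000 exonic bases the normalized count of Rragd was 17.1, 19.7 and 26.0 in Mul1(+/+) and 111, 198 and 181 in Mul1(-/-). On this scale per length Rragd stood above 26.8%, 27.5% and 31.9% of the 3529 annotated genes of the table in the Mul1(+/+) libraries and above 51.2%, 66.2% and 65.1% in the Mul1(-/-) libraries. It stood in the lower part of the table in Mul1(+/+), just above its middle in Mul1(-/-) replicate 1 and further above it in replicates 2 and 3.

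The targeted gene Mul1 (ENSMUSG00000041241, chr4:138434671-138442265) was read first as a check of the labels. It was counted at 3172, 3232 and 3423 in the wild-type libraries, in the order of their replicate numbers, and at 1037, 965 and 1753 in the Mul1(-/-) libraries. The Mul1(-/-) mean was 38.2% of the Mul1(+/+) mean, so RNA of the gene was still counted in the deleted mice, most in the library of replicate 3. The log2 difference was -1.44 with a standard error of 0.40, and limma's Benjamini-Hochberg adjusted p over the table was 0.0126, which misses the threshold used here (adjusted p below 0.01 together with a log2 difference beyond 1 in either direction). Rragd did not follow the remaining Mul1 RNA within the Mul1(-/-) group, since replicates 2 and 3 had similar Rragd values and different Mul1 values.

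The libraries differed in ways that touch the level of Rragd. The reads on the table's genes numbered 11932163 to 15385822 per library. Genes of the mitochondrial genome held 10.7% to 13.4% of the summed values in Mul1(+/+), and 49.4%, 22.8% and 15.4% in Mul1(-/-) replicates 1 to 3. The library with the largest mitochondrial share was also the Mul1(-/-) library with the lowest Rragd. Scaled to 1000000 of the table's summed values outside the mitochondrial genome, Rragd was 7.88, 10.3 and 13.4 in Mul1(+/+) and 58.9, 86.8 and 106 in Mul1(-/-), and the groups stayed apart. Rescaling each library by its median ratio to the others, which moved the median difference of all genes by -0.66 on the log2 scale, gave the smallest difference for Rragd, 2.27. The part of the mitochondrial share in the Rragd difference was not tested.

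**Figure D2:**
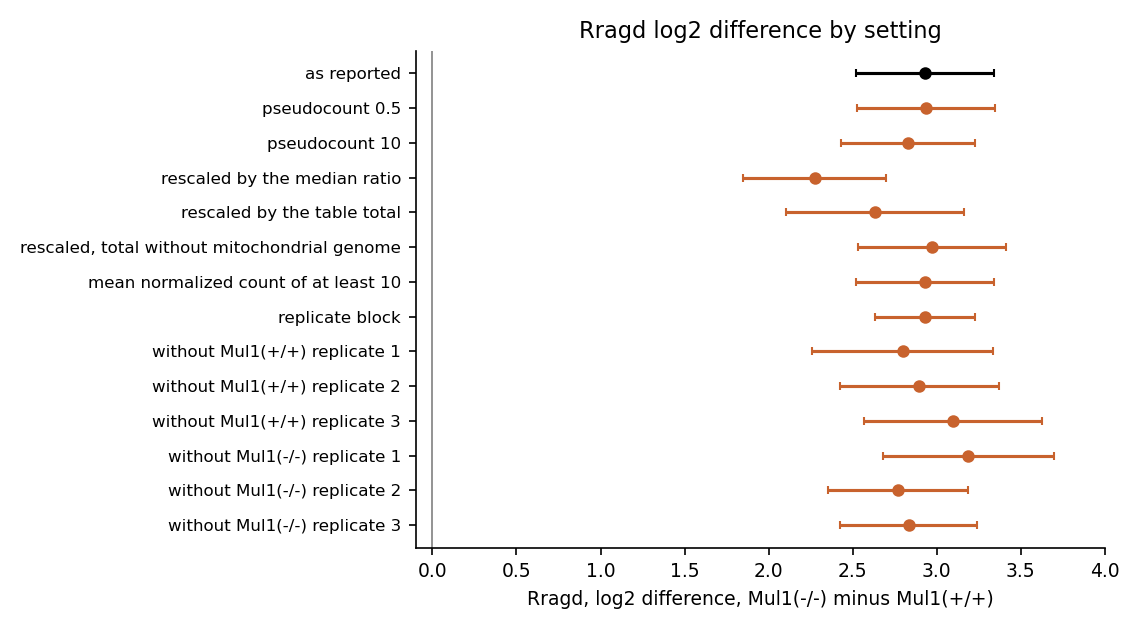
Log2 difference of Rragd, Mul1(-/-) minus Mul1(+/+), under each setting (points) with its standard error (bars). The value as reported is 2.93, and the alternatives run from 2.27, with libraries rescaled by the median ratio, to 3.19, without Mul1(-/-) replicate 1.

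Those markers of the cell types of a piece of liver that were in the table also differed between the groups. The table holds only genes the authors listed as different. The sums below therefore leave out every listed marker without a row, and they do not measure cell content. Of 9 hepatocyte markers listed, 3 were in the table (Apob, Tat and Hnf4a), all lower in Mul1(-/-), with summed normalized counts of 181863 to 290795 in Mul1(+/+) and 105171 to 106048 in Mul1(-/-). Of 7 bile duct markers, the table held 5, each of them higher, with sums of 1316 to 1930 against 4949 to 5234, and Epcam and Spp1 were past limma's threshold. Stellate cell markers summed to 4535 to 5467 against 9101 to 29168 (3 of 9 in the table, all higher). Of 10 lymphocyte and neutrophil markers, 2 were in the table, the T cell genes Cd3d and Cd8a, both higher. They summed to 13.9 to 60.2 against 89.1 to 202, and no neutrophil marker was in the table. Endothelial markers summed to 3352 to 3910 against 1184 to 2140 (2 of 8, both lower), the macrophage marker Lyz2 overlapped between groups (1 of 9), the erythroid marker Alas2 was lower (1 of 6), and 0 of 7 kidney tubule and muscle markers were in the table. No marker in the table was at 0 in any library. In whole tissue, fewer cells of a type and less RNA per cell cannot be told apart, and the part of these markers in the Rragd difference was not tested. Within Mul1(-/-), Krt19, Krt7, Epcam and Cldn7 were highest in replicate 1 (1151.41, 251.32, 360.91 and 134.43), where Rragd was lowest. Spp1 was instead highest in replicate 3 (4612.71), and as the largest of the 5 it weighs most in the sums.

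No other Rag GTPase gene could be set beside Rragd. Rraga, Rragb and Rragc have no row in the table and were not analysed here. RagC takes the same place in the pair as RagD, and whether its gene moved with Rragd is not known from these values. Beyond the Rag genes, 78 genes of the pathway around them were listed by role, and 15 of these were in the table. By limma's threshold 2 of the 15 were higher in Mul1(-/-) (Rhebl1 and Ddit4l), where 16.7% of the table was, and 2 were lower (Sesn3 and Eif4ebp2), where 7.43% of the table was. Both counts are near what those shares would give for 15 genes. By mean, 13 of the 15 were lower, where 43.2% of the table was, and 2 were higher, where 56.8% of the table was. The median log2 difference of the 15 was -1.41, and that of the table was 1.12. Over all genes of the table with a lower mean in Mul1(-/-) the median was -1.43, so the size of these falls was usual for the table. The 13 hence ran opposite to Rragd, and 12 of them had groups that did not overlap, where 41.0% of the table did so with lower values in Mul1(-/-).

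**Figure D3:**
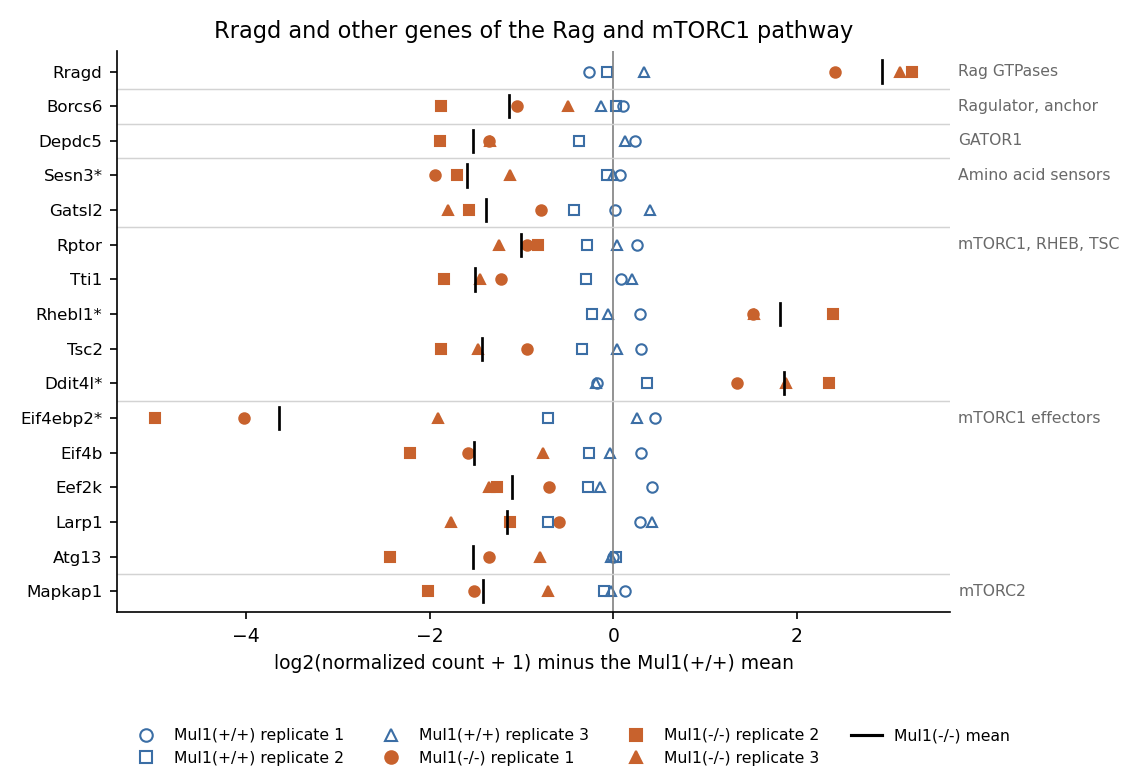
Log2(normalized count + 1) of Rragd and 15 genes of the Rag and mTORC1 pathway in each library, minus the gene's Mul1(+/+) mean (open symbols Mul1(+/+), filled symbols Mul1(-/-), bar the Mul1(-/-) mean, asterisk a gene other than Rragd past limma's threshold). Rragd, Rhebl1 and Ddit4l lie to the right in all 3 Mul1(-/-) libraries, and the Mul1(-/-) means of the other 13 genes lie to the left of 0, furthest for Eif4ebp2 at -3.64.

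Upstream of the Rag pair, the genes in the table were lower in Mul1(-/-). Sesn3 encodes a sestrin, a family that restrains GATOR2, and fell from normalized counts of 1562.59, 1418.71 and 1486.34 to 385.75, 455.58 and 682.42 (log2 difference -1.59, standard error 0.39, limma adjusted p = 0.00984). Its groups were far apart, but the adjusted p lies just under the threshold, and the call was lost with a pseudocount of 0.5 (limma adjusted p = 0.0108) and with libraries rescaled to the total without the mitochondrial genome (limma adjusted p = 0.0128). Gatsl2, the CASTOR2 gene related to the arginine sensor CASTOR1, had 198.06, 145.24 and 258.07 against 112.51, 64.91 and 55.33, a log2 difference of -1.39 that missed the threshold (limma adjusted p = 0.0172). Depdc5, the gene of a GATOR1 subunit, had 646 ± 138 and 223 ± 45.0 as its Mul1(+/+) and Mul1(-/-) means (SD, n = 3 each), and limma's adjusted p was 0.0110. Borcs6, or lyspersin, a part of the BORC complex that binds Ragulator and positions lysosomes, was at 48.7% of its Mul1(+/+) mean (limma adjusted p = 0.0313). The exons of Borcs6 overlap an opposite-strand transcript over 41.2% of their bases, and whether counting used strand is not given in the sources used here, so its value is uncertain. No gene of the folliculin complex (0 of 9 listed) was in the table.

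The kinase complex and its switch held genes in both directions. Rhebl1, a close relative of RHEB, rose from 16.86, 11.51 and 13.07 to 40.91, 75.93 and 41.28 (log2 difference 1.81, standard error 0.42, limma adjusted p = 0.00838). It is a low gene, 18.0% of its exonic bases lie in other genes, and it was no longer past the threshold with libraries rescaled by the median ratio (log2 difference 1.18, limma adjusted p = 0.0258) or by the table's total (limma adjusted p = 0.0134), or with limma-trend (adjusted p = 0.0107). Ddit4l, also called REDD2, an inhibitor of mTORC1 signalling, rose from 35.4, 52.25 and 35.12 to 103.74, 208.19 and 151.06 (log2 difference 1.86, standard error 0.42, limma adjusted p = 0.00816). Ddit4l also lost its call under the median ratio (log2 difference 1.21) and under the table's total (1.56, limma adjusted p = 0.0151). As with Rragd, the highest Ddit4l value was in Mul1(-/-) replicate 2 and the lowest Mul1(-/-) value was in replicate 1. Tsc2, a partner in the tuberous sclerosis complex that keeps RHEB off, had 2431.54, 1553.32 and 2035.15 against 1027.21, 537.63 and 713.16, a log2 difference of -1.43 (limma adjusted p = 0.0142). Rptor, the mTORC1 subunit that the Rag pair binds, was at 49.8% of its Mul1(+/+) mean (limma adjusted p = 0.0299), and Tti1, which helps assemble mTOR complexes, at 35.3% (limma adjusted p = 0.0110). In Mul1(-/-) the Rptor values ran from 892 to 1194, a narrower range than that of Rragd.

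Downstream of the kinase, Eif4ebp2 had the largest difference of the pathway. Its product holds back cap-dependent translation until mTORC1 phosphorylates it, and its normalized counts fell from 6704.64, 2989.74 and 5831.04 to 301, 153.08 and 1302.48 (log2 difference -3.64, standard error 0.71, limma adjusted p = 0.00692). Every Mul1(-/-) library was below every Mul1(+/+) library, and the Mul1(-/-) values themselves spread widely, with replicate 3 the highest. The translation factor gene Eif4b, with a log2 difference of -1.52 (limma adjusted p = 0.0153), the elongation factor kinase gene Eef2k, with -1.11 (limma adjusted p = 0.0263), and Atg13 of the autophagy-starting complex, with -1.53 (limma adjusted p = 0.0161), missed the threshold. Larp1, which binds mRNAs of ribosomal proteins, overlapped between the groups, since its lowest Mul1(+/+) value of 3808 was below its highest Mul1(-/-) value of 4154. Mapkap1, the Sin1 subunit of mTORC2, had a log2 difference of -1.41 (limma adjusted p = 0.0161). The MiT/TFE factors (0 of 4 listed) were not in the table, so their RNA was not analysed here.

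These calls depended on which libraries entered the fit. When any 1 of the Mul1(+/+) libraries or Mul1(-/-) replicate 2 was dropped, limma called 0 of the 15 genes, although 11 to 14 had an unadjusted p under 0.05. The whole table moved in the same way, with 9 to 31 genes called higher and 1 to 15 called lower of 3542 in these fits and 2471 to 3039 at an unadjusted p under 0.05, so this is not particular to the 15 genes. Without Mul1(-/-) replicate 3, 10 of the 15 were called, with 1595 higher and 1078 lower in the table. Direction held in each of those fits. Where the groups of a gene did not overlap, leaving out a library could not reverse its direction, so this is no check for such genes. For Rragd the log2 difference was at least 2.77 and at most 3.19 when single libraries were dropped.

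Because Rragd acts at the lysosome and is a target of the factors that drive lysosomal genes, the lysosome, the proton pump and autophagy were examined as lists. Of 115 such genes, 23 were in the table, 7 with a higher and 16 with a lower mean in Mul1(-/-), beside 56.8% and 43.2% of the table. The median log2 difference was -1.15, beside -1.43 over the lower genes of the table. Cd63 passed limma's threshold as higher, and Atg9a was among those that passed as lower. Called as higher were 1 of 23, a smaller share than the table's 16.7%, and called as lower 2 of 23, close to the table's 7.43%. Most of the lysosomal genes in the table thus ran opposite to Rragd, and Cd63 ran with it.

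Cd63, a tetraspanin of late endosomes and lysosomes, rose from 311.84, 588.91 and 467.14 to 2029.57, 4495.78 and 2038.48 (log2 difference 2.58, standard error 0.47, limma adjusted p = 0.00640). Its highest library, Mul1(-/-) replicate 2, was also the highest for Rragd. Gpnmb, a membrane glycoprotein that MiT/TFE factors turn on in macrophages, had 17.7, 45.16 and 27.77 in Mul1(+/+) and 29.22, 67.36 and 560.34 in Mul1(-/-), so its difference came from 1 library and the groups overlapped (limma adjusted p = 0.0672). Among the other lysosomal genes in the table, Ctsl had a higher mean in Mul1(-/-), Gaa, Psap and Scarb2 had lower values there with no overlap between the groups, and these 4 missed the threshold.

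The V-ATPase, the pump that acidifies the lysosome and binds Ragulator, had 4 of 25 genes in the table and 0 past limma's threshold (3 had an unadjusted p under 0.05, as did 3416 of the 3542 genes of the table). Atp6v0b (log2 difference 1.24, limma adjusted p = 0.0195) and Atp6v1g1 (1.10, limma adjusted p = 0.0253) had higher values in Mul1(-/-), and Atp6v0a1 had lower values (-1.64, limma adjusted p = 0.0158). With libraries rescaled by the median ratio, Atp6v0b was at 0.58 (limma adjusted p = 0.195) and Atp6v1g1 at 0.45 (limma adjusted p = 0.282). Atp6v0a1 was then at -2.30. Under the table's total, Atp6v0b was at 0.94 and Atp6v1g1 at 0.80. For Atp6v1g1, 19.2% of the runs of 50 bases also occur in other genes. Of 44 autophagy genes, 8 were in the table. By mean 7 of these were lower, where 43.2% of the table was, and 1 passed limma's threshold. That gene, Atg9a, the lipid scramblase of forming autophagosomes, fell from 2276.46, 1284.98 and 1828.53 to 458.81, 138.39 and 424.21 (log2 difference -2.54, standard error 0.52, limma adjusted p = 0.00701), with 32.6% of its exonic bases shared with overlapping genes. Calcoco1, an autophagy receptor, and Atg4c, a protease that processes LC3-like proteins, had log2 differences of -1.74 (limma adjusted p = 0.0186) and -1.64 (limma adjusted p = 0.0166).

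Amino acid supply was examined through transporters and through the ATF4 response. Of 21 transporters linked to mTORC1, 5 were in the table. Slc1a5, a glutamine transporter, rose from 53.94, 74.39 and 62.07 to 578.63, 513.14 and 165.12 (log2 difference 2.52, standard error 0.52, limma adjusted p = 0.00701). Its order within Mul1(-/-) was the opposite of that of Rragd for replicate 1, which was high for Slc1a5 and low for Rragd. Slc38a4, a liver transporter of neutral amino acids, was at 44.6% of its Mul1(+/+) mean (limma adjusted p = 0.0218), and Slc38a7, a lysosomal glutamine exporter, at 47.5% (limma adjusted p = 0.0316).

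Of 20 genes of the ATF4 amino acid response, 7 were in the table, 6 of them with a higher mean in Mul1(-/-), where 56.8% of the table was, and 3 passed limma's threshold as higher. Asns rose from 16.86, 22.14 and 40.02 to 545.02, 567.02 and 660.46 (log2 difference 4.52, standard error 0.43, limma adjusted p = 0.000317). The Asns values were tight in Mul1(-/-), and its call held when any single library was dropped. Nupr1, a stress-induced chromatin protein gene, rose from 44.0 ± 8.70 to 263.5 ± 65.8 (SD, n = 3 each, limma adjusted p = 0.00433). Psat1, an enzyme gene of serine synthesis, rose from 37.93, 51.36 and 49 to 137.35, 195.95 and 204.64 (log2 difference 1.93, standard error 0.39, limma adjusted p = 0.00697). Shmt2, the mitochondrial serine hydroxymethyltransferase gene, was the member with lower values (log2 difference -1.49, limma adjusted p = 0.0137). In Fgf21, a hormone gene of the liver, the groups overlapped. The 3 of 7 genes called higher stand beside 16.7% of the table. Psat1 was no longer past the threshold when libraries were rescaled by the median ratio, with a log2 difference of 1.28, or by the table's total, with 1.63.

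**Figure D4:**
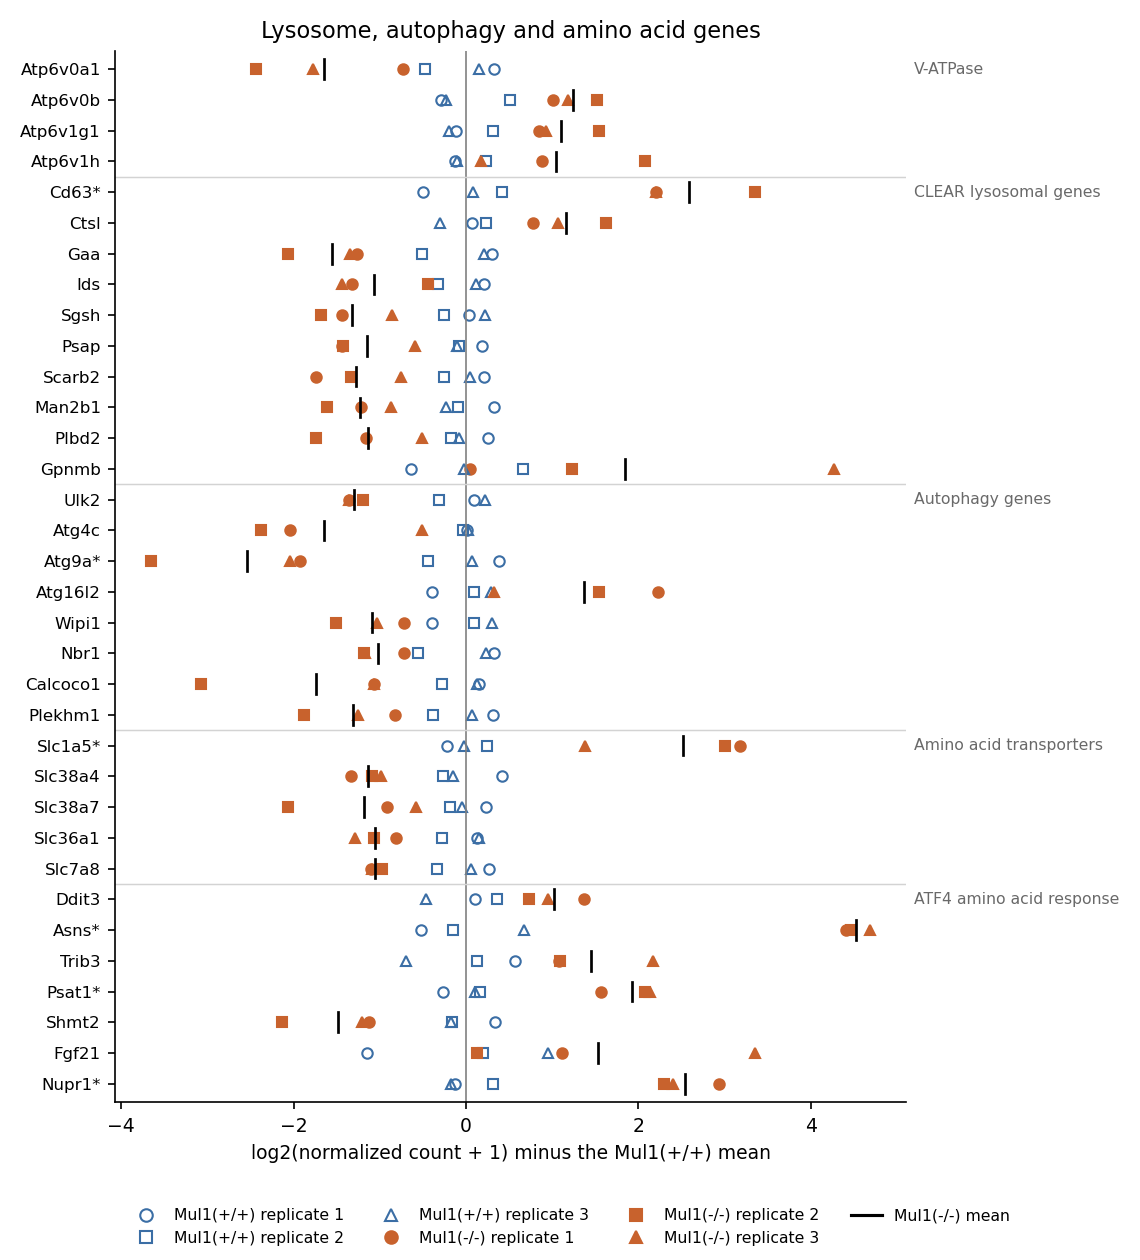
Log2(normalized count + 1) minus the Mul1(+/+) mean for reported genes of the V-ATPase, lysosome, autophagy, amino acid transport and ATF4 lists in each library (open symbols Mul1(+/+), filled symbols Mul1(-/-), bar the Mul1(-/-) mean, asterisk a gene past limma's threshold). Asns stands furthest right at 4.52, most lysosomal and autophagy genes lie left of 0, and the 3 Mul1(-/-) libraries of Gpnmb and Fgf21 are widely scattered.

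Over all the lists without Rragd, 50 of 234 genes were in the table, 7 passed limma's threshold as higher and 4 as lower, close to the shares of 16.7% and 7.43% in the table as a whole. Their median log2 difference was -1.14, beside -1.43 over the lower genes of the table. By mean 34 were lower and 16 higher, beside 43.2% and 56.8% of the table. Groups without overlap were seen for 33 of the 50 with lower values in Mul1(-/-) and for 13 with higher values, beside 41.0% and 49.3% of the table. Leaving out any Mul1(+/+) library, or Mul1(-/-) replicate 2, left 1 of the 50 past the threshold, which was Asns, and leaving out Mul1(-/-) replicate 3 gave 21 lower calls.

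The genes whose pattern was most like Rragd were sought among 2495 genes with a mean normalized count of at least 100, by Pearson's r of log2(normalized count + 1) over the 6 libraries. The libraries fall into 2 genotypes, so a gene of this table has a high or a low r from the group difference alone: the median r was 0.858 for genes with a higher mean in Mul1(-/-) and -0.882 for genes with a lower one. Against that level, 74 genes had r of at least 0.95 and 127 had r of -0.95 or less. The highest were Gm26782 (r = 0.996), Casp12 (0.996), Psat1 (0.993), Pfkp (0.989) and Adamts5 (0.988), and Asns (0.987) came next in rank 6.

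Casp12, an inflammatory caspase gene linked to the endoplasmic reticulum, was the nearest in shape and size. Its normalized counts were 50.57, 50.48 and 60.43 in Mul1(+/+) and 309.77, 687.04 and 656.95 in Mul1(-/-), with replicate 1 the low library of its group as for Rragd. Pfkp, the platelet form of the glycolytic enzyme phosphofructokinase, had 168.56, 154.98 and 151.9 against 767.12, 1363.06 and 1122.44. Both repeat the order of Rragd within Mul1(-/-), with replicate 2 highest. By the distance between profiles centred on their own means, which also asks for a similar size of difference, the nearest genes were Casp12 (0.221, root mean square on the log2 scale), Pfkp (0.245), Snhg1 (0.410), Snhg15 (0.419) and Cd63 (0.422). Snhg1 and Snhg15 are host genes of small nucleolar RNAs, and 20.9% of the exonic bases of Snhg1 overlap such RNAs. Both measures shared 2 of their 5 genes. Gm26782 is annotated as antisense, had a smaller ratio of means of 2.22 that did not pass the threshold, and shares bases with Tep1 on the opposite strand. Adamts5, a protease gene of the extracellular matrix, gave the same order of the 6 libraries as Rragd.

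The lowest r were those of Gna12 (-0.995), AU040320 (-0.993), Pdxk (-0.992), Tob2 (-0.991) and Fzd4 (-0.990). Gna12, the gene of a G protein alpha subunit, had 10118.9, 9990.29 and 9300.26 in Mul1(+/+) and 4247.64, 3169.46 and 3746.73 in Mul1(-/-), a mirror of Rragd in the order of the libraries. Pdxk, the pyridoxal kinase gene, and Tob2, an antiproliferative protein gene, also ran in exactly the opposite order (Spearman's rho of -1 for both). For Pdxk, 39.0% of the exonic bases overlap a transcript of the opposite strand. Among the Rag and mTORC1 pathway genes, the lowest r with Rragd were those of Tti1 (-0.959) and Tsc2 (-0.951).

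With the group means removed, r describes only how libraries of the same genotype differed, and other genes came first. Pdzd8 (r = 0.966), Tspan7 (0.936), Tgfbr2 (0.935), Marveld3 (0.928) and Nuak1 (0.924) were highest, and 0 of these were among the 5 highest over all libraries. Pdzd8, which tethers the endoplasmic reticulum to other membranes, had 1816.28, 1774.71 and 2253.2 in Mul1(+/+) and 751.04, 1067.92 and 1066.23 in Mul1(-/-). Within each group it thus ran like Rragd, while between the groups it ran the other way. Among the pathway genes Psat1 had a within-group r of 0.865 and Ddit3 one of -0.853. These values rest on 6 libraries that share their scaling factors and their genotype contrast, and they are given as a description.

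**Figure D5:**
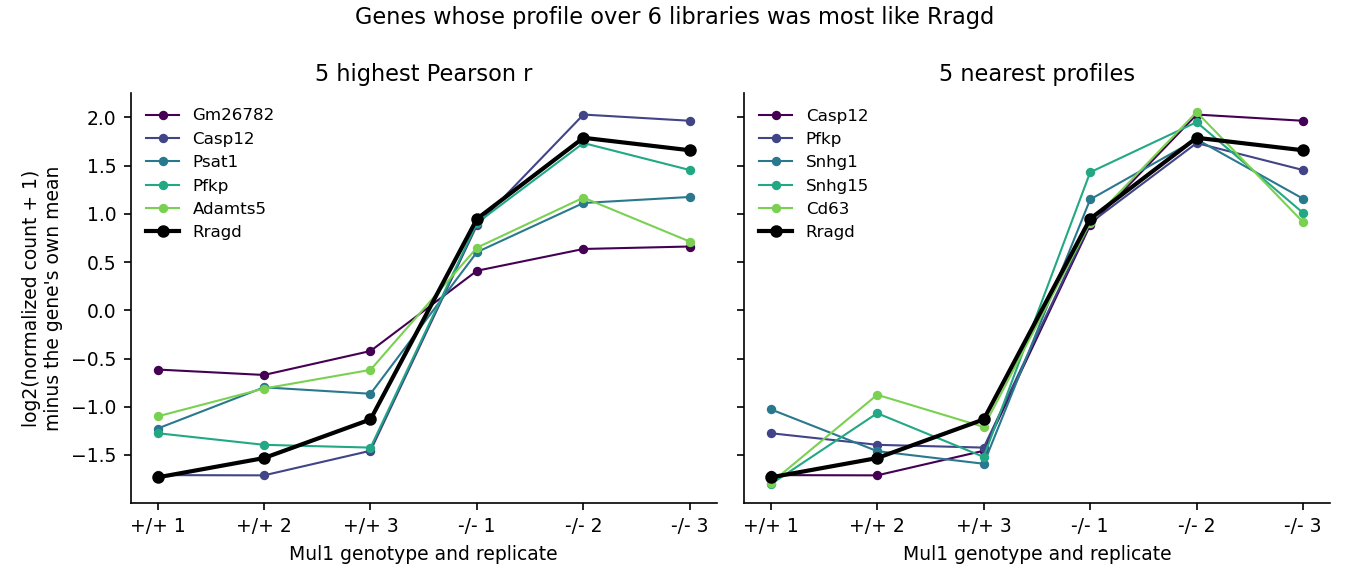
Log2(normalized count + 1) minus the gene's own mean in the 6 libraries, for Rragd (black) and for the 5 genes with the highest Pearson r (left) and the 5 nearest profiles (right), with lines that only join the values of a gene. Casp12 and Pfkp appear in both panels and follow Rragd most closely, with distances of 0.221 and 0.245.

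The neighbourhood of Rragd on chromosome 4 held 26 annotated genes within 500000 bases, 13 of them protein coding, and 2 were in the table. Ankrd6, at chr4:32804035-32950841, ends 32196 bases before the start of Rragd. Its normalized counts were 12.64, 17.71 and 14.7 in Mul1(+/+) and 75.98, 61.23 and 29.86 in Mul1(-/-), higher like those of Rragd but with replicate 1 the highest, and the log2 difference of 1.74 missed the threshold (standard error 0.45, limma adjusted p = 0.0108). Pm20d2, a dipeptidase gene at chr4:33174230-33189737, starts 152050 bases after the end of Rragd and went the other way. It fell from 151.71, 108.04 and 182.93 to 7.31, 12.25 and 55.33 (log2 difference -2.98, standard error 0.65, limma adjusted p = 0.00785). The genes beside Rragd thus did not share one direction, and the other 24 were not analysed here.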

How the data were processed

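Liver mRNA of 3 Mul1(+/+) and 3 Mul1(-/-) mice on HFD was sequenced. GENEWIZ made and analysed the libraries, and the authors compared the groups with DESeq2. The aligner, counter, build, annotation and strand setting are not given in the sources used here. The authors deposited a table of the genes they listed as significant, with a score per library that is a read count divided by a library factor. Columns with the authors' own log2 differences and each p-value of their test, adjusted or not, were also deposited and were not used for any result. The value of 1 read (0.817 to 1.46) was recovered from low scores: 100% of values under 10000 were whole multiples of it (tolerance 0.1).

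After adding a pseudocount of 1, values were put on the log2 scale with low genes kept, and limma 3.58.1 (R 4.3.3) was fitted to all 3542 genes with genotype as the only term, with Benjamini-Hochberg adjustment. A fold change on this scale understates that of low genes. Since the table was selected on these libraries, counts of calls and adjusted p-values are not independent evidence. All p-values measure only the spread between these samples. The adjustment covers only the genes of this selected table, so it controls no error rate over all the genes measured. The fit was tested on simulated data. The rest was done in Python 3.11.15 (scipy 1.17.1, pandas 2.3.3, numpy 2.4.6, matplotlib 3.10.9). Of the gene identifiers, 3529 matched GENCODE M21 (GRCm38) and 13 did not. No coordinates came from the authors' files. Per length values divide by the exonic bases of a gene. Promoter windows were taken from RefSeq (GRCm38.p6).

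Rragd, the gene lists and the tests were chosen with earlier results of these data known. Named genes are Rragd, Mul1, every gene in the table from the lists of the Rag and mTORC1 pathway, at most the 3 largest differences in each direction past the threshold from each other list (or the 3 largest where fewer than 3 passed), genes of the table within 500000 bases, and the 5 most and 5 least like Rragd and the 5 nearest. Genes named outside this rule (Epcam, Spp1, Gaa, Psap, Scarb2, Ctsl, Shmt2, Fgf21, Ddit3 and the 5 highest within groups) were chosen after their values were seen. The same holds for Krt7 and Cldn7. Alternatives were other pseudocounts, rescaled libraries, a filter on the mean, limma-trend, an adjusted p limit of 0.05, blocking on the replicate number, and dropping single libraries. Results for a gene of these lists that is not reported here enter the counts only.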

Additional observations from a re-analysis of the deposited data

How the results depend on the processing

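The log2 difference of Rragd lay between 2.27 and 3.19 over 13 alternatives. It moved by more than the spread between replicates only with libraries rescaled by the median ratio (2.27), and ran from 2.77 to 3.19 with each library left out. Counts of calls moved more. For the table (591 higher, 263 lower) they were 172 lower with a pseudocount of 0.5, 680 lower with 10, 236 higher and 1031 lower under the median ratio, 724 lower under the table's total, 171 lower under that total without the mitochondrial genome, 964 and 905 with limma-trend, and 1877 and 1503 at an adjusted p under 0.05. Leaving out each library gave 9 to 1595 higher and 1 to 1078 lower. For the 50 pathway genes (7 higher, 4 lower) they were 2 lower with a pseudocount of 0.5, 14 lower with 10, 4 and 24 under the median ratio, 4 and 12 under the total, 2 lower under the total without the mitochondrial genome, 20 lower with limma-trend, 13 and 33 at 0.05, and 1 to 9 higher and 0 to 21 lower with each library left out. For the 15 Rag and mTORC1 genes (4 either way) they were 9 with a pseudocount of 10, 10 under the median ratio, 9 with limma-trend, 14 at 0.05 and 0 to 10 with each library left out. The cause of these moves was not tested. Fits with a library left out also have fewer samples, and the part of that in the moves was not tested either. None of 465 values of 31 named genes reversed (0). The filter on the mean, limma-trend, the replicate block and the limit of 0.05 leave log2 differences unchanged, so these settings could not reverse a value. For genes whose groups do not overlap, other pseudocounts and dropped libraries could not reverse a value either.

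The deviations of same-numbered libraries from their group means had r of 0.02, 0.35 and 0.05. With 3 libraries per group such values cannot settle whether the libraries were paired. The replicate numbers are used here only to name libraries. Adding the number as a replicate block cannot move a log2 difference in this balanced design. For Rragd it left 2.93, with a standard error of 0.30. In that fit limma called 0 genes of the table higher and 0 lower (3314 at an unadjusted p under 0.05), 0 and 0 of the pathway genes (48) and 0 of the Rag and mTORC1 genes (15). Each replicate 2 correlated best with its own number, and this did not hold for every library. Rescaling shifted the median difference of all genes by -0.66 (median ratio), -0.30 (total) and 0.04 (total without the mitochondrial genome). The planned edgeR and DESeq2 tests on recovered reads were not run. Depth did not limit Rragd, which had at least 105 reads per library, but genes outside the table, Rraga, Rragb and Rragc among them, could not be examined.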
